A study of Drosophila melanogaster with 2 samples.

Results

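Chromosome 4 of Drosophila melanogaster held 507 of the 30000 entries in the relaxed list called from the pooled reads of a chromatin immunoprecipitation experiment with sequencing (ChIP-seq). An entry is a stretch of genome where the authors' peak caller found signal over a control, and the relaxed list keeps weak entries and background along with peaks. The 507 were all the entries of that list on chromosome 4, ranked genome-wide by the deposited signal value, with rank 1 the strongest. The same chromosome held 471 of 30000 entries in the relaxed list of replicate 2, 527 of 30000 in that of replicate 3, and 8 of the 2993 peaks of the optimal list. The authors cut the optimal list with the irreproducible discovery rate, a method that compares ranks between replicates, and all 8 were among the 507. On chromosome 4 and on every arm the count of optimal peaks equalled that of the 2993 strongest pooled entries. An optimal peak need not recur in both replicate lists. Of these strongest entries, 2940 of 2985 on the arms had an entry in both, and 8 of 8 on chromosome 4. Optimal peaks per Mb, the share of entries that were optimal and the chromosome 4 share down to pooled rank 2993 are therefore not separate results.

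The precipitated protein was CG10462 fused at its C-terminal end to enhanced green fluorescent protein, made from a transgene in a stable fly line, and the antibody recognised the fluorescent protein. Both samples were whole embryos aged 0 to 24 h of mixed sex, so every tissue of the embryo is averaged. The 2 samples are labelled biological replicates 2 and 3 of a single group, and neither an untagged line nor the control library was analysed here. Read counts are not part of the lists, so sequencing depth is unknown, and the intervals cover the counting of entries only.

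Chromosome 4 is the small dot chromosome of the fly. Much of it is packed as heterochromatin, with the protein HP1 and methylated histone H3 lysine 9 over genes and repeats alike, yet most of its genes are expressed, and the chromosome-specific protein POF binds their bodies. It is rich in remnants of transposable elements, chiefly INE-1 and 1360, and it recombines very little. It carries well-known developmental regulators such as ci, ey, toy, pan and sv, and many genes of the nervous system.

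The reference sequence at the optimal peaks shows the composition of the sites. Below are 120 bp centred on the summits of 6 of the 8 peaks, from the plus strand of the RefSeq Release 6 assembly (dm6), named by the nearest gene and with positions counted from 1. Capitals mark runs of 6 or more A and T bases. The strongest peak is not shown because its window lies in annotated untranslated exons.
zfh2 (chr4:497826-497945): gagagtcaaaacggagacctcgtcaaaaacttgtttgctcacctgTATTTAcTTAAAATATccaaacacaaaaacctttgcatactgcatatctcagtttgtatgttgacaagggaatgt
Sox102F (chr4:807618-807737): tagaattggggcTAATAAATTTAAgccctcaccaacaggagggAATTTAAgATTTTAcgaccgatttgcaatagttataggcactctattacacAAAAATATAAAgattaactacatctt
lncRNA:CR43437 (chr4:424738-424857): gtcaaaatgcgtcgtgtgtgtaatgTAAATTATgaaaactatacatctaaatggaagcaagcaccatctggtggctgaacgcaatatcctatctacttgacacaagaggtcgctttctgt
PlexA (chr4:1027216-1027335): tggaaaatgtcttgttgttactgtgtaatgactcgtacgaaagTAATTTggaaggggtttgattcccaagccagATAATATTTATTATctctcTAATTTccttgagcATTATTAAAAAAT
gw (chr4:660135-660254): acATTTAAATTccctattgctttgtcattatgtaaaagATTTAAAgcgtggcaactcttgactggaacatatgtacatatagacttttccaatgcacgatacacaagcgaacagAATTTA
fuss (chr4:982836-982955): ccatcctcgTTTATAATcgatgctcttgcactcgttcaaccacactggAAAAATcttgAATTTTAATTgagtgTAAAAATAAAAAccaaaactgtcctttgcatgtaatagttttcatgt
The G and C share of these windows ran from 31.7% at PlexA to 40% at lncRNA:CR43437. Runs of A and T took up 8 bases at lncRNA:CR43437 and 39 bases at PlexA. The longest stretches that any pair shared had 11 letters. AGGGAATTTAA stood in the Sox102F window and, on the opposite strand, in the gw window. Across the central 120 bp of all 30000 pooled entries it occurred in 7 entries, of which 3 were on chromosome 4 and 3 were optimal peaks. ATGAAAACTAT was shared by the lncRNA:CR43437 and fuss windows and occurred in 14 entries. These letters were found by comparing the windows after the peaks were known, so the counts are descriptions.

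Weak entries were denser on chromosome 4 than on the other arms, and optimal peaks were sparser. Per Mb of known sequence the pooled list had 381 entries on chromosome 4 (95% exact interval 348 to 416) against 223 on 2L, 2R, 3L, 3R and X together, a ratio of 1.71 (1.56 to 1.87, two-sided exact conditional test of 2 counts, p = 2.835e-28). Replicate 2 gave a ratio of 1.58 (interval 1.44 to 1.74) and replicate 3 gave 1.78 (1.63 to 1.94). Each of the 5 arms lay between 201 and 246 pooled entries per Mb. The pooled entries covered 15.01% of chromosome 4 and 8.71% of the arms.

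The optimal list held 6.01 peaks per Mb on chromosome 4 (interval 2.595 to 11.8) and 22.6 on the arms, a ratio of 0.266 (0.115 to 0.526, exact conditional p = 4.902e-06). Of the 507 chromosome 4 entries, 8 (1.58%, interval 0.684 to 3.08%) were optimal peaks, where the share over the whole pooled list was 9.98%. Per Mb, the ratio was also below 1 in each replicate. Among as many of the strongest entries as the optimal list holds, chromosome 4 had 10 in replicate 2 and 12 in replicate 3, with ratios to the arms of 0.333 (interval 0.160 to 0.614) and 0.400 (0.207 to 0.700). The tests treat entries as independent counts, so their p-values describe these lists and not the spread between embryos. Stretches of the arms as long as chromosome 4 held between 1 and 546 pooled entries, with a median of 334 beside 507 on chromosome 4. The intervals and p-values leave out this unevenness, and the density of the arms includes the nearly empty stretches. How the control, the mapping of repeats and the chromatin of chromosome 4 bear on either density was not tested.

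**Figure D1:**
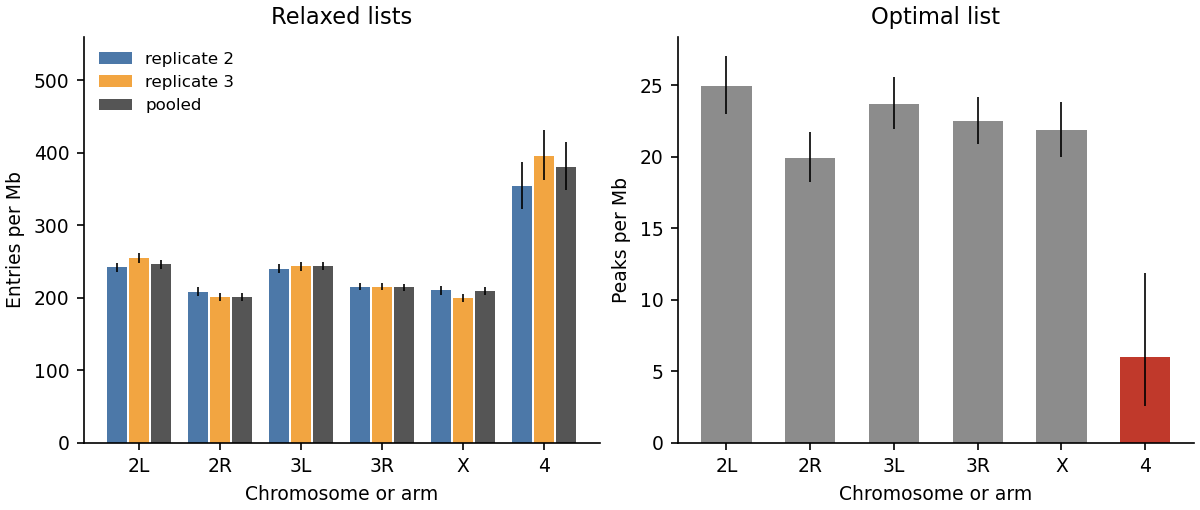
Entries per Mb of known sequence on each arm and on chromosome 4 in the relaxed lists of replicate 2, replicate 3 and the pooled reads (left), and peaks per Mb in the optimal list (right). Bars are densities and lines are 95% exact intervals; chromosome 4 has the highest bars on the left, at 354, 396 and 381, and the lowest on the right, at 6.01.

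The density depended on what it was counted against. Chromosome 4 has 80 protein-coding genes on 1331131 bp of known sequence. It held 6.34 pooled entries per coding gene against 2.13 on the arms, a ratio of 2.98 (interval 2.72 to 3.25). For optimal peaks the ratio per coding gene was 0.464 (0.200 to 0.916, exact p = 0.0210). Within the stronger part of the optimal list, cut at the middle of its ranks, chromosome 4 held 7 peaks and the ratio was 0.467 per Mb (0.188 to 0.965). Per coding gene it was 0.815 there, with an interval of 0.327 to 1.68 that spans equality. The 2993 strongest entries of each replicate gave ratios per coding gene of 0.581 (0.278 to 1.07, exact p = 0.0891) in replicate 2 and 0.698 (0.360 to 1.22, exact p = 0.274) in replicate 3, so on that scale neither replicate alone passed the test.

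Set beside sequence of the same length, chromosome 4 combined many weak entries with few optimal peaks in a way that no stretch of the arms did. The arms were divided into 95 consecutive stretches of 1348131 bp, the length of chromosome 4. Their median was 334 pooled entries and 33 optimal peaks. Only 2 stretches, both on 3L, exceeded chromosome 4 in pooled entries, with 536 and 546, and these had 55 and 44 optimal peaks. In replicate 2, 6 stretches exceeded it, and in replicate 3 none of the 95 did. Another 12 stretches had 8 or fewer optimal peaks, and these held between 1 and 183 pooled entries. Of these 12, the stretch with 183 lies near the centromere end of 2L and had 6 optimal peaks. Transposable elements made up 24.0% of it, beside 25.1% of chromosome 4. Another of the 12, on X, had 25.4% of its bases in elements, with 63 pooled entries and 3 optimal peaks. The stretches richest in elements, with 44.0% on 2R and 44.9% on 3L, had 80 and 69 pooled entries.

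**Figure D2:**
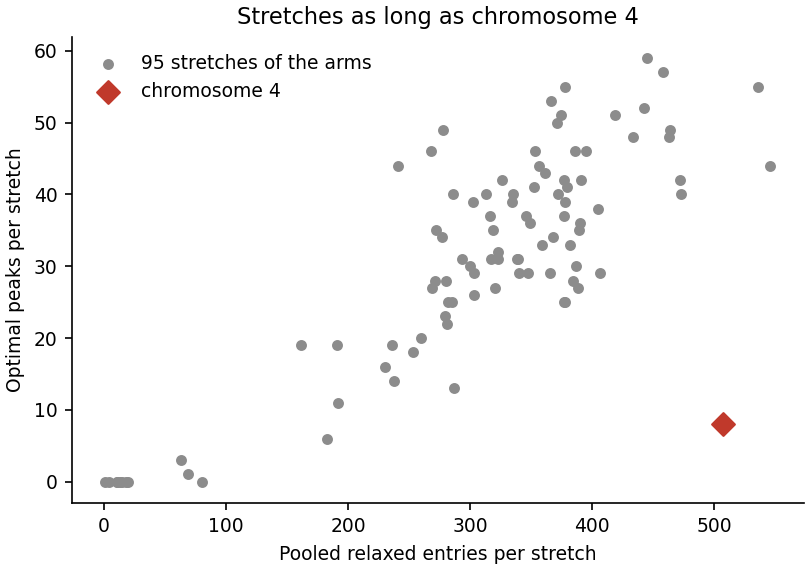
Pooled relaxed entries (horizontal axis) and optimal peaks (vertical axis) in each of 95 stretches of the arms as long as chromosome 4 (grey points) and in chromosome 4 itself (red diamond). Stretches with many entries have many optimal peaks, and chromosome 4 stands alone at 507 entries and 8 peaks.

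The shortage on chromosome 4 ended at different ranks in the replicates. In the pooled list chromosome 4 gave 0.4% of the 1000 strongest entries, 0.201% of those ranked 1001 to 2993 and 0.648% of those ranked 2994 to 5000. The share then reached 1.52% at ranks 5001 to 10000 and 2.24% at ranks 15001 to 20000, against 1.69% over the whole list. Replicate 2 followed the same course, with its highest share of 1.98% at ranks 15001 to 20000. In replicate 3 the highest share, 2.34%, came at ranks 5001 to 10000, and it fell to 1.56% at the end of the list. The reference of 1.69% is above the share of sequence, as chromosome 4 has 1.331 Mb of known bases beside 132.3 Mb on the arms. Against sequence the shortage ended at stronger ranks, and replicate 3 already gave 1.15% at ranks 2994 to 5000.

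**Figure D3:**
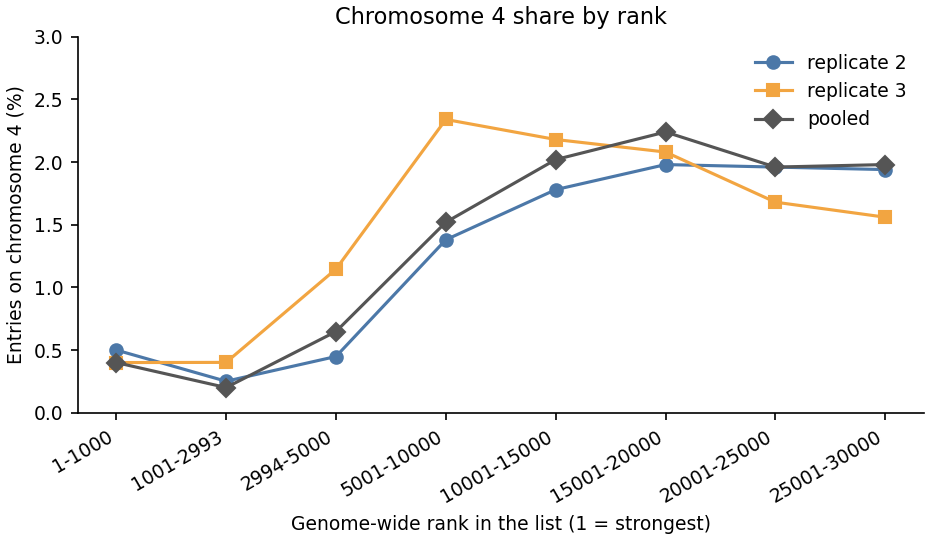
Share of entries that lie on chromosome 4 (vertical axis, percent) by class of genome-wide rank (horizontal axis, strongest first) in the relaxed lists of replicate 2 (blue), replicate 3 (orange) and the pooled reads (grey). All lists lie at or under 0.5% down to rank 2993; replicate 3 rises to 2.34% at ranks 5001 to 10000, where replicate 2 has 1.38%.

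The median rank of chromosome 4 entries also differed between replicates. It was 17419 in the pooled list (arms 14942) and 17823 in replicate 2 (arms 14939). In replicate 3 it was 15153, beside 14998 on the arms, so the lower standing of the typical chromosome 4 entry was seen in replicate 2 and in the pooled list but not in replicate 3. The best chromosome 4 entry ranked 303 in the pooled list, 106 in replicate 2 and 339 in replicate 3. The pooled signal of the 507 ran from 15.6 to 207, with a median of 21.1 against 22.9 on the arms. The signal has no stated scale and is compared only within a list.

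Few chromosome 4 entries passed a q-value of 0.05 on the authors' own scale. In the pooled list 43 of 507 did (8.48%, interval 6.21 to 11.2%), against 23% of all entries. In replicate 2 it was 74 of 471 (15.7%) against 30.1%, and in replicate 3 it was 25 of 527 (4.74%) against 13.4%. The share on chromosome 4 was lower than the background in all 3 lists. The q-values weaken as the signal falls, so this limit acts much like a cut on rank and is not a separate result.

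Of the 8 optimal peaks, 3 were at promoters, meaning within 500 bp of an annotated transcript start, 4 were intergenic and 1 was in exons outside coding sequence. The strongest, chr4:1113221-1113431, had its summit at position 1113306, in 3′ untranslated exons of sv (shaven, a Pax-family transcription factor) and of Cals (calsyntenin, a neuronal membrane protein), which overlap there. Its signal was 207 in the pooled list, 131 in replicate 2 and 79.7 in replicate 3, with ranks of 303, 273 and 339. It was the best chromosome 4 entry of the pooled list and of replicate 3. Which of the overlapping genes it belongs to cannot be told from position.

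The next peak, 3924 bp upstream of zfh2 (a zinc-finger homeodomain transcription factor), was the least even between replicates. Its signal was 205 in the pooled list, 194 in replicate 2 and 24.9 in replicate 3. It was the strongest chromosome 4 entry of replicate 2, at rank 106, and stood at rank 2910 in replicate 3, with its summit there 208 bp away. The deposited entry was 140 bp wide, where the median width was 416 bp.

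Sox102F (a SoxD transcription factor) had a peak 331 bp upstream of a start, with signals of 176 in the pooled list, 109 in replicate 2 and 64.3 in replicate 3. Its ranks, 435, 425 and 546, were close to one another. Replicate 3 had a further entry at the same promoter, at rank 2519. The peak 1269 bp upstream of lncRNA:CR43437, a noncoding gene, had signals of 167, 88.9 and 73.7 in the same order, and ranked 488, 703 and 402.

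PlexA (plexin A, a semaphorin receptor of axon guidance) had a peak 175 bp before a start, which stood higher in replicate 3 than in replicate 2. Its signal was 112 in the pooled list, 44.1 in replicate 2 and 67.5 in replicate 3, and its ranks were 1129, 2526 and 488. At gw (gawky, the GW182 protein of microRNA silencing) the peak 212 bp upstream of a start went the other way, with signals of 101, 77.2 and 29.2 and ranks of 1378, 917 and 2261. In both genes the peak lay close upstream of the start, while their order differed between replicates.

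The peak nearest to fuss (a Ski/Sno-family corepressor) lay far from any start, 4407 bp upstream of that of fuss, in the stretch between fuss and toy. Which gene it belongs to cannot be told from position. The signals of the peak were 98.5 in the pooled list, 64.3 in replicate 2 and 30.9 in replicate 3. Its ranks were 1415, 1319 and 2073, so it stood somewhat lower in replicate 3.

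The optimal list ended at rank 2993. The strongest chromosome 4 entry outside it was the entry 106 bp upstream of lgs (legless, a coactivator of Wnt signalling) at pooled rank 3197. That entry ranked 2936 in replicate 2 and 4645 in replicate 3. The next entries were 235 bp upstream of CaMKII, a calcium-dependent kinase of synapses, at rank 3333, and in an intron of zfh2, at 3561. They were followed by the promoters of CG31999 (3695), mGluR, the metabotropic glutamate receptor (4155), CaMKI (4229) and Actbeta, an activin ligand (4342). The entry nearest to Asator, a kinase gene, lay 531 bp upstream of a start and ranked 4029. An intronic entry of pan, the TCF factor of Wnt signalling, lay in an INE-1 element (4426), and an entry at a start region shared by CG11076 and ATPsynbeta, a subunit of ATP synthase, ranked 4476. All 10 entries just below the optimal list had an entry in both replicates. At pooled ranks 2994 to 10000 this held for 78 of 89 chromosome 4 entries and for 81.2% of arm entries, so it does not set these 10 apart.

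A few sites stood much higher in replicate 3 than in replicate 2. The 2993 strongest entries of replicate 3 included an entry 84 bp downstream of a start of apolpp, at rank 2411. apolpp encodes the main lipid carrier of the blood, and a start of Zyx also lies within 500 bp of that entry. The promoter of unc-13, which primes synaptic vesicles, was included at rank 2640. The apolpp and unc-13 entries ranked 7657 and 15975 in replicate 2, and 4927 and 5553 in the pooled list. An entry in an intron of Cadps, a gene of dense-core vesicle release, ranked 2627 in replicate 3 and 24138 in the pooled list, and had no entry in replicate 2. These 3 were named after their values were seen.

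The share of chromosome 4 entries that overlapped between replicates was no higher than on the arms, although entries there covered more of the sequence. The entries of replicate 3 covered 15.1% of chromosome 4 and 8.49% of the arms, and those of replicate 2 covered 14.01% and 8.71%, so overlap by position alone is more frequent on chromosome 4, and the shares are not adjusted for it. Of the 471 entries of replicate 2, 233 (49.5%, interval 44.9 to 54.1%) overlapped an entry of replicate 3 by at least 1 bp, against 50.02% on the arms. Of the 527 of replicate 3, 223 (42.3%, interval 38.1 to 46.7%) overlapped an entry of replicate 2, against 46.8%, a value just above the interval. With summits required to lie within 100 bp, the shares fell to 22.7% and 20.3%, where the arms had 29.5% and 29.6%, values outside the chromosome 4 intervals of 19.0 to 26.8% and 16.9 to 24.0%.

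Of the 507 pooled entries, 228 (45.0%, interval 40.6 to 49.4%) had an entry in both replicates, where the whole list had 48.7%. A further 133 had an entry in replicate 2 alone, 116 in replicate 3 alone and 30 in neither. Because the pooled list was called from the same reads, this share is no independent test. In none of the 3 rank classes below the optimal list was the chromosome 4 share the lower. At pooled ranks 2994 to 10000, 78 of its 89 entries were in both (87.6%, arms 81.2%), at 10001 to 20000 it was 102 of 213 (47.9%, arms 42.7%), and at 20001 to 30000 it was 40 of 197 (20.3%, arms 16.7%). The chromosome 4 intervals, 79.0 to 93.7%, 41.0 to 54.8% and 14.9 to 26.6%, each held the share of the arms. These classes used the 1 bp overlap. With summits within 100 bp, the share over all pooled entries was 21.5% on chromosome 4 and 29.9% on the arms.

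The ranks of the recurring entries were only loosely ordered alike. Across the 228 chromosome 4 entries found in both replicates, Spearman's rho between replicate ranks was 0.19, and across 14370 entries of the arms it was 0.64. Outside the optimal list the values were 0.10 (220 entries) and 0.39 (11430). At pooled ranks 2994 to 10000 they were −0.09 (78 entries) and 0.16 (5614). These are descriptions across sites of the same libraries. Chromosome 4 has a smaller share of strong entries, and how far this bears on rho was not tested. The last class was cut on the pooled rank, which draws on both replicates, so rho within it also depends on that cut.

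**Figure D4:**
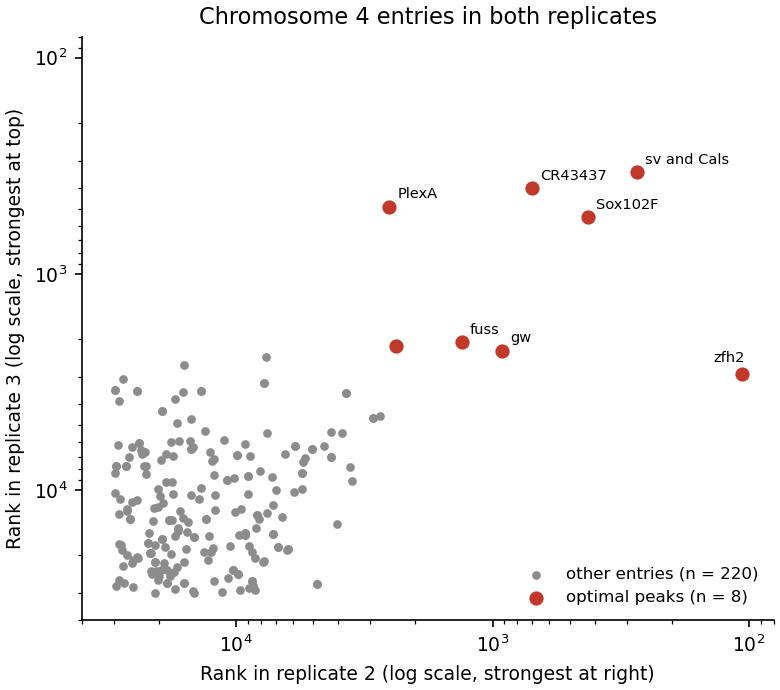
Rank in replicate 2 (horizontal axis) and in replicate 3 (vertical axis) of the 228 chromosome 4 entries of the pooled list that overlapped an entry in both replicates, on log axes with the strongest at the upper right. The 8 optimal peaks (red, 7 of them labelled by gene) are separate from the other 220 (grey), which form a cloud with little order. That separation largely follows from their high pooled rank, which draws on both replicates. zfh2 stands at rank 106 against 2910 and PlexA at 2526 against 488.

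Entries were spread along nearly all of chromosome 4. Consecutive windows of 100 kb held between 31 and 58 pooled entries up to position 1200000, with 15 in the window after it and 0 in the last, which is 48131 bp long. The most were between 1000001 and 1100000, where PlexA and CaMKII lie, and next came 56 between 400001 and 500000, where 3 of the 8 optimal peaks lie. The median gap between neighbouring summits was 1486.5 bp, against 1827 bp on the arms. The widest gap, 35926 bp from position 4305 to 40231, held no unknown bases.

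Summits on chromosome 4 were at promoters less often than on the arms, and in coding exons more often. Promoters held 95 of the 507 (18.7%, interval 15.4 to 22.4%) and make up 10.9% of the known bases. On the arms it was 29.5% of summits and 13.6% of bases. Replicate 2 gave 22.9% (arms 32.1%) and replicate 3 gave 14.8% (arms 23.8%). Of the 95, 60 lay upstream of the nearest start (63.2%, interval 52.6 to 72.8%), against 65.2% on the arms.

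Coding exons outside promoters held 75 of the 507 summits (14.8%, interval 11.8 to 18.2%) and 19.2% of the bases of chromosome 4. On the arms they held 4.10% of summits and 13.9% of bases. Replicate 2 gave 12.7% on chromosome 4 against 4.43%, and replicate 3 gave 19.9% against 6.53%. At pooled ranks 2994 to 10000 the contrast was 12 of 89 (13.5%) against 0.882%. None of the 8 optimal peaks lay in a coding exon. Introns held 41.8% of chromosome 4 summits and 41.9% of its bases, so the share of entries there was close to that of sequence.

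Transposable elements held 75 summits as well (14.8%), of which 48 lay in INE-1 alone and 6 in 1360. That share was below the 25.1% of chromosome 4 made up of such elements, and the arms, with 5.75% of bases in elements, had 0.722% of summits in them. None of the 8 optimal peaks lay in an element. With only the summits whose central window was less than 50% repeat-masked, 419 entries remained on chromosome 4, and the density ratio to the arms was 1.55 (interval 1.41 to 1.71). That restriction was chosen after the data were seen. The ratio still divides by all known bases, of which 28.1% on chromosome 4 and 20.1% on the arms are masked. Masked summits were left out but masked bases were not, which lowers the density more where more is masked, as on chromosome 4.

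Most genes of chromosome 4 had an entry at a start. Of the 80 coding genes, 62 did in the pooled list (77.5%, interval 66.8 to 86.1%), against 50.7% on the arms. Replicate 2 had 63 and replicate 3 had 55, and 44 genes had an entry in all 3 relaxed lists. In the optimal list it was 3 of 80 (3.75%, interval 0.780 to 10.6%), namely Sox102F, PlexA and gw, against 14.7% on the arms. Genes with many starts have more chances of an entry, and this was not adjusted for.

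Of 16 developmental and chromatin regulators, 11 had an entry at a start in the pooled list, 13 in replicate 2 and 10 in replicate 3, beside 62, 63 and 55 of all 80 coding genes of the chromosome. The 8 present in all 3 lists were Sox102F (pooled rank 435), lgs (3197), Mitf (5893), zfh2 (7057), the zinc-finger gene dati (12154), fuss (12669), pho (15851), which recruits Polycomb complexes, and NfI (27488). Those without one in any list, named after this was seen, were onecut, fd102C and toy, the last a Pax6 gene of eye development. ci, the transcription factor of Hedgehog signalling, had an entry at rank 7920 in the pooled list and at 6853 in replicate 2 but none in replicate 3.

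A list of 16 genes of the nervous system and cell surface, which also holds a muscle gene, had 11 members with an entry in the pooled list, 10 in replicate 2 and 11 in replicate 3, again beside 62, 63 and 55 of 80. The 8 in all lists were PlexA (1129), CaMKII (3333), mGluR (4155), Actbeta (4342), unc-13 (5553), Cadps (8031), the glutamate receptor gene Ekar (11296) and bt (16053), which encodes a giant muscle protein. PlexB, Ephrin and Gat had none at a start, although 9 summits lay between 2 kb upstream and the end of Ephrin. The replicates placed unc-13 differently, at 15975 in replicate 2 and 2640 in replicate 3.

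Of 15 genes used by most cells, 14 had an entry in the pooled list, 12 in replicate 2 and 11 in replicate 3, beside the same counts over all 80. Differences between the lists were not tested. The 8 in all lists were gw (1378), ATPsynbeta (4476), Asator (8152), MED26 of the Mediator complex (8638), the calcium pump PMCA (10763), the translation factor eIF4G1 (14393), Pur-alpha (20199) and Arf4 (28802). RpS3A, the ribosomal protein gene of the chromosome, had an entry at rank 6516 in the pooled list and at 5272 in replicate 2 but none in replicate 3. Each of the 3 lists had 1 member with an optimal peak at a start, namely Sox102F, PlexA and gw.

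The genes with the most summits were long ones. From 2 kb upstream to the end of the gene, pan held 20, PMCA 17, Sox102F and Asator 15 each, and sv and unc-13 14 each. pan is 44.95 kb long and Asator 19.6 kb, and per kb of that region they held 0.426 and 0.695 summits. The summits of pan numbered 21 in replicate 2 and 19 in replicate 3, and those of unc-13 numbered 12 and 21.

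On average, the base composition around chromosome 4 summits ran against that of the arms. On the arms the 100 bp at the summit were poorer in G and C than the flanks 400 bp to either side, with 38.1% against 41.9% over all pooled entries, a difference of −3.82 percentage points. On chromosome 4 the difference was +1.39 points (SD 9.28 over 507 summits), with 34.8% at the centre and 33.4% in the flanks. Replicate 2 gave +1.85 points and replicate 3 gave +1.38, against −3.47 and −2.83 on the arms. Chromosome 4 as a whole has 35.2% G and C and the arms 42.2%.

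The direction was opposite on chromosome 4 and the arms just below the optimal list. At pooled ranks 2994 to 10000 the centres had the same G and C share, 36.6%, on chromosome 4 (89 summits) and on the arms (6918 summits). The flanks had 32.1% on chromosome 4 and 42.8% on the arms, so the centre differed from the flanks by +4.49 points on the one and −6.18 on the other. Centres poorer than their flanks made up 24.7% on chromosome 4 (interval 16.2 to 35%) and 68.4% on the arms. The contrast was smaller further down. At ranks 10001 to 20000 the differences were +0.52 points (213 summits, SD 8.81) and −2.41 points on the arms. At ranks 20001 to 30000 they were +1.01 (197 summits, SD 9.47) and −1.17. In that last class poorer centres made up 48.7% on chromosome 4, with an interval of 41.6 to 55.9% that holds the 51.8% of the arms. Among optimal peaks the centre had 34.6% G and C on chromosome 4 (8 peaks) and 32.8% on the arms, and the flanks had 35.1% and 44.5%, so the differences were −0.5 and −11.7 points.

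**Figure D5:**
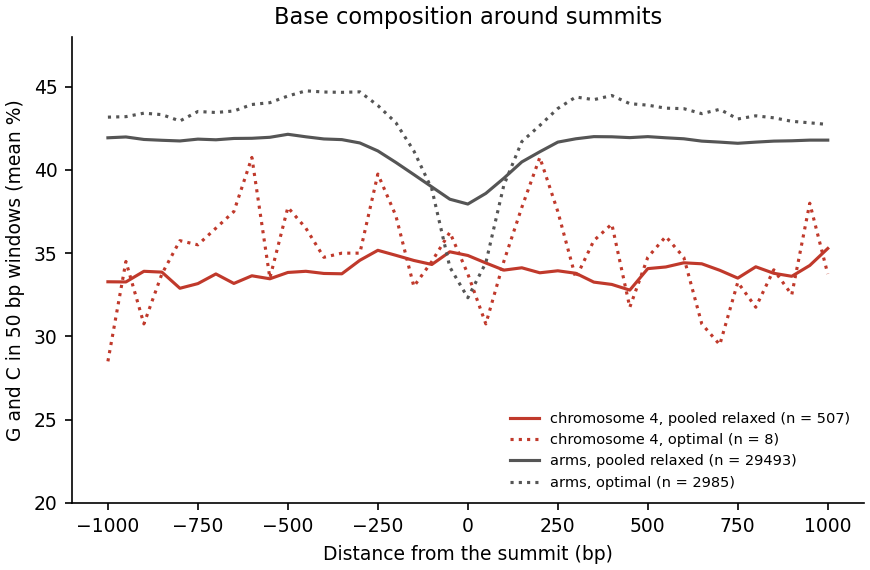
Mean G and C share of 50 bp windows (vertical axis, percent) against distance from the summit (horizontal axis, bp) for chromosome 4 (red) and the arms (grey), over all pooled relaxed entries (solid) and over optimal peaks (dotted). The arms dip at the summit, most in the optimal list; the 507 chromosome 4 entries lie between 32.8 and 35.3% throughout, and the line for its 8 optimal peaks is uneven.

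The shares of 5 short consensus strings were compared between chromosome 4 summits and the arms. In the central 100 bp, TATCGATA, the core of the DREF element, occurred in 7 of 507 summits (1.38%) against 0.973% on the arms. TAATTA, a homeodomain core, occurred in 7.69% against 7.79%, GAGAG, read by GAGA factor, in 8.88% against 11.2%, and AACAGC in 6.51% against 6.44%. GGTCACAC occurred in 1 summit (0.197%, interval 0.00499 to 1.09%) against 0.699%. In the pooled list each chromosome 4 interval held the share of the arms. In replicate 3 the share of TAATTA on chromosome 4 was 4.74% (interval 3.09 to 6.92%) against 7.96%, and in replicate 2 that of GAGAG was 7.86% (5.59 to 10.7%) against 11.9%, both outside the interval. The letters were matched on both strands, and a match is a description, not a binding site.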

How the data were processed

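ChIP-seq peak lists of 2 samples of 1 group were analysed in build dm6 (Release 6). The authors deposited, for each replicate and for pooled reads, a relaxed list called against a control, and an optimal list; which aligner and caller made them is not given in the sources used here. The signal values, deposited by the authors without a stated scale, were used to rank entries within a list. The −log10 q-values, also deposited by the authors, served only for the limit of 0.05.

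Positions count from 1, and densities use known bases. Starts, exons and transposable elements came from Ensembl release 115, with 23998 starts on chromosome 4 and the arms; sequence came from RefSeq. Counts were compared by the two-sided exact conditional test, and shares have 95% exact (Clopper-Pearson) intervals. Overlaps needed 1 bp. All entries were kept in the counts; 1 optimal peak is not reported singly here. The code was tested on simulated lists.

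The members, gene lists and tests were chosen with earlier results of these data known. Genes named are those at, holding or nearest to the optimal peaks, the 15 strongest pooled entries, the 5 strongest of each replicate and the 10 just below the optimal list, the 5 genes with most summits with ties, and list members in all relaxed lists, up to 8 per list. Other genes (ci, toy, onecut, fd102C, ey, PlexB, Ephrin, Gat, RpS3A, apolpp, Zyx) were named as examples or exceptions, after their values were seen where values are given. Of 17 names on the list of genes used by most cells, a few are synonyms, leaving 15 genes. Alternatives were other distances and overlaps, each replicate, coding genes, list length and build dm3. Software was scipy 1.17.1, pandas 2.3.3, numpy 2.4.6 and matplotlib 3.10.9 under Python 3.11.15.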

Additional observations from a re-analysis of the deposited data

How the results depend on the processing

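With 1 choice changed at a time, the density ratios kept their direction and their side of 0.05. They ran from 1.33 to 2.98 for relaxed entries and from 0.333 to 0.467 for optimal peaks. With each replicate alone they ran from 1.58 to 1.78 and from 0.333 to 0.400. For the latter, the 2993 strongest relaxed entries of each replicate stood in for the optimal list. With 2 choices changed together, the first 15000 entries of replicate 2 gave 1.19 per Mb (exact p = 0.0263). Counted per coding gene, the optimal deficit no longer passed 0.05 in the stronger part of the list (0.815, exact p = 0.732) or among the strongest entries of replicate 2 (0.581, exact p = 0.0891) and replicate 3 (0.698, exact p = 0.274). In build dm3 chromosome 4 held 1.69% of the pooled entries and 0.287% of the optimal peaks, and the share of its entries that were optimal was 1.59%.

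Stricter overlap lowered the recurrence. With an overlap of 50% of both entries it was 36.9% for replicate 2, 32.3% for replicate 3 and 34.9% for the pooled entries in both. With summits within 100 bp these were 22.7%, 20.3% and 21.5%, and within 50 bp the first and second were 13.6% and 12.1%. The promoter share was 10.3% at 200 bp and 29.2% at 1000 bp, and 14.8 to 22.9% with each replicate alone. The share of coding genes was 51.2% at 200 bp and 88.8% at 1000 bp, and 68.8 to 78.8% with each replicate alone. By construction these shares grow with the distance allowed. The median rank was 15153 to 17823 with each replicate alone, and the cause of that gap was not tested.

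No paired analysis was possible because there is a single group. The lists give no read counts, so what depth limits cannot be stated, and 8 optimal peaks limit the precision of every value drawn from them.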
